A study of Homo sapiens with 4 samples.

Results

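Cadherins and catenins are the proteins that hold neighbouring cells together at adherens junctions. The genes followed here are 10: CDH1, CDH2, CDH3, CDH13 and CDH19 of the cadherins, and CTNNA1, CTNNA2, CTNNB1, CTNND1 and CTNND2 of the catenins. They were chosen by name, as part of a gene table with 19974 protein-coding genes. Every entry of the 2 deposited peak lists whose nearest gene was one of the 10 was taken, at any distance from the gene. This gave 58 of the 32479 summits of replicate 1 and 61 of the 40494 summits of replicate 2.

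The lists come from ChIP-seq of TBX3, a T-box transcription factor, fused to a 3xHA tag. Both ChIP samples were made from 501mel, an established human melanoma line, with an HA antibody (clone 12CA5). The 2 input samples of the same line, which are sheared chromatin without antibody, were not analysed here. All samples came from 1 line, and how the tagged protein was expressed is not given in the sources used here. With 1 ChIP condition, no test between conditions was possible. The lists give no read depth, so precision is limited by the 2 lists themselves. Peak lists hold no expression values, so markers of the melanoma line could not be checked. Nothing in the labels says whether the replicates came from separate cultures.

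Classical cadherins span the membrane and bind the same cadherin on the next cell. Inside the cell their tails bind beta-catenin and the delta-catenins, and alpha-catenin links this complex to actin. Normal melanocytes carry E-cadherin, the product of CDH1, through which they adhere to keratinocytes, and melanomas often carry N-cadherin, the product of CDH2, in its place. TBX2 and TBX3 are known from other work as repressors of CDH1 in melanoma cells. Beta-catenin also acts in the nucleus as the coactivator of Wnt signalling.

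A summit is the single base that the deposited file gives for a peak, in build hg38. A pair of summits, 1 in each list, is called a shared region when each was the nearest to the other and they lay within 200 bp. The deposited peak score has no stated scale, so scores and ranks (rank 1 is the highest score) describe peaks within their own list.

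The only summit in a promoter window of a member for which sequence was at hand was that of CDH19, a cadherin of the Schwann cell lineage. It is shown because a summit at a start site was rare among these genes. Below are the 202 bases before the start site that the deposited distance implies, chr18:66604139-66604340, minus strand, 5′ to 3′, from RefSeq in build GRCh38.p14. Capitals mark the 21 bases centred on the replicate 1 summit, which is base 173.
CDH19: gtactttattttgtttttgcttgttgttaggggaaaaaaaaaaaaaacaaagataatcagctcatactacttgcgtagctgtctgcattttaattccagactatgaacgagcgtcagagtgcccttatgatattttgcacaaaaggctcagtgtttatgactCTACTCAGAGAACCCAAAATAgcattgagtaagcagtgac

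The T-box half-site was searched as AGGTGTGA and as its first letters AGGTG, on both strands, so that each longer match holds a shorter one. This CDH19 stretch holds 0 of either. In windows of 250 bases before the start, 0.786% of 35116 RefSeq promoters hold the longer string and 45.4% the shorter one. These windows are longer than the CDH19 stretch and are set by the RefSeq start. The CDH19 window of that kind also held neither string. The promoter table matched 6 of the 10 genes with 14 windows of 300 bases, of which 0 held AGGTGTGA and 6 held AGGTG. Windows of the same gene can overlap and are not separate. Those of CTNNA1 that start at 138874980 and 138875150 overlap, and both count among the 6. In all 35116 windows of 300 bases the shares were 0.980% and 51.6%. A match or its lack describes these letters only.

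The members' summits recurred in part. Of the 58 replicate 1 summits, 29 had a partner in replicate 2 (50.0%, 95% Wilson interval 37.5% to 62.5%), against 69.9% of the whole list. Of the 61 replicate 2 summits, the same 29 pairs made up 47.5% (35.5% to 59.8%), against 56.1% of the whole list. The intervals cover counting error only. CTNND2 held down the first share: without its 21 replicate 1 summits, 24 of 37 recurred (64.9%, 48.8% to 78.2%), and in replicate 2 the share was then 49.0%.

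Recurrence followed the score in the members as in the whole lists. Of the 20 replicate 1 summits with a score at or above the median of their list, 17 recurred (85.0%, 64.0% to 94.8%), against 92.4% of all such summits. Below the median, 12 of 38 recurred (31.6%, 19.1% to 47.5%), against 45.7%. In replicate 2 the upper part gave 24 of 29 (82.8%, 65.5% to 92.4%), against 83.7%, and the lower part 5 of 32 (15.6%, 6.86% to 31.8%), against 27.6%. The median score of member summits was 7.47 in replicate 1, against 12.4 for all, and 12.2 in replicate 2, against 13.9. Without CTNND2 these medians were 11.6 and 16.5, so the second then lay above that of its list. Among summits with a partner, the members' medians of 18.4 and 30.0 stood near the 19.3 and 29.0 of all such summits.

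Of the 10 genes, 9 were the nearest gene of at least 1 shared region, beside 28.6% of all protein-coding genes, and no test was attached to this count. CDH3 was the exception. The count takes regions at any distance, and a gene far from other genes can be nearest to more of them. Within 10 kb of a start site the share was 10.0%, against 10.1% of all protein-coding genes. The 29 shared regions were unevenly spread, with 13 at CTNNB1, 5 at CTNND2, 3 each at CDH2 and CTNND1, and 1 each at CDH1, CDH13, CDH19, CTNNA1 and CTNNA2. The first 2 of these genes held 62.1% of them. Both lists named the same gene for all 29 regions, whose paired summits lay 1 to 140 bp apart, with a median of 32 bp against 28 bp for all shared regions.

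**Figure D1:**
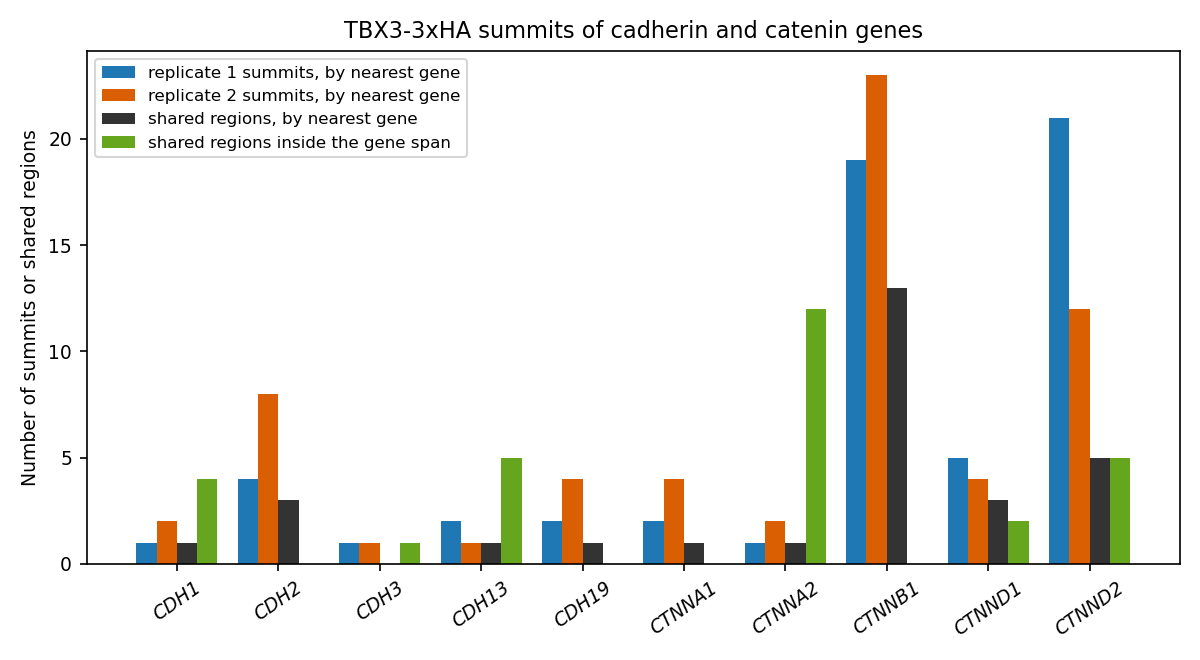
Bars give, for each of the 10 genes, the number of summits in replicate 1 and replicate 2 assigned to it by nearest start site. Further bars give the shared regions among them and the shared regions inside the span that RefSeq gives the gene. CTNNB1 had 13 shared regions by nearest gene and 0 inside its span, whereas CTNNA2 had 1 by nearest gene and 12 inside its span. Most of those 12 are annotated as intergenic.

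The regions lay mostly far from start sites. Within 10 kb of a start site, CTNND1 alone held such a region, which is 1 of 10 genes (10.0%), near the 10.1% of all protein-coding genes. Of the 29 shared regions, 23 lay more than 50 kb away (79.3%, against 50.5% of the 22482 shared regions with a deposited distance). Member summits had median distances of 106208 bp (replicate 1) and 122158 bp (replicate 2), against 50211 and 49953 bp for the whole lists. Intergenic annotation covered 16 of the 29 (55.2%), against 53.2% of all shared regions. A repeat held the replicate 1 summit of 9 of the 29 (31.0%), against 41.7%, and 6 of these were in LTR elements. The LTR share over all shared regions was not counted, so those 6 have no background beside them. Another shared region lay within 5 kb of 6 of the 29 (20.7%), against 30.0%.

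**Figure D2:**
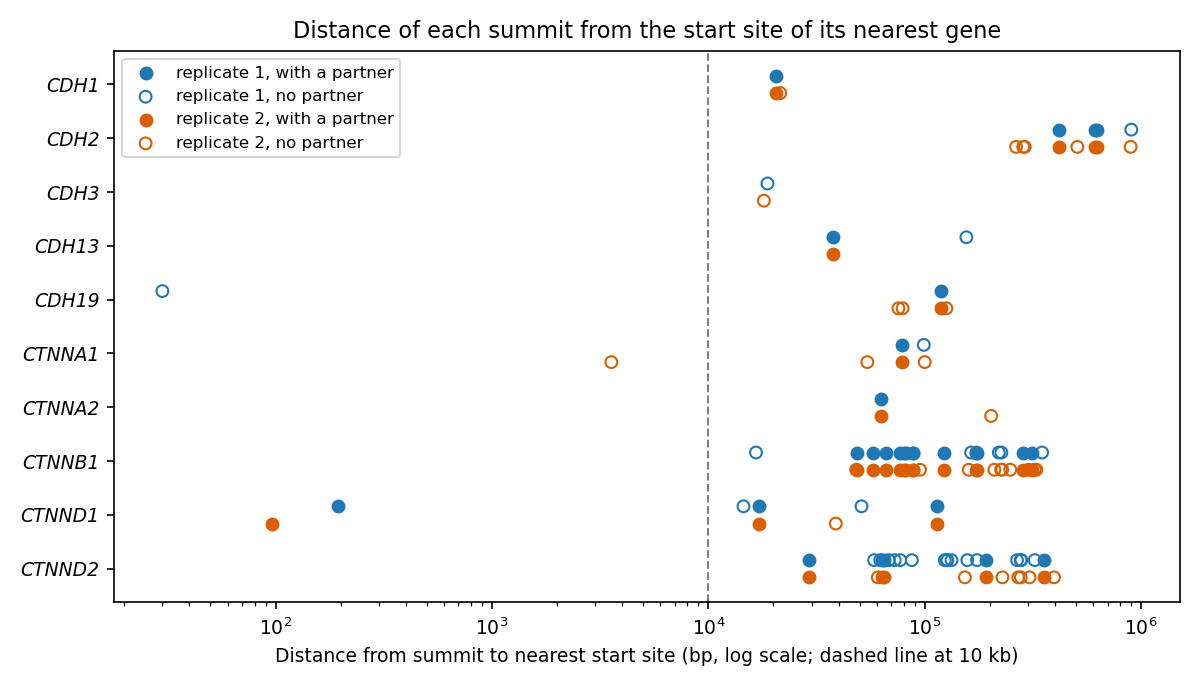
Each point is a summit, placed by its distance to the nearest start site on a log axis, with filled points for summits that have a partner in the other replicate and open points for those that do not. Left of the dashed line at 10 kb lie 4 points, of which the CTNND1 pair at 195 and 96 bp is filled and the points of CDH19 and CTNNA1 are open.

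CDH1, which encodes E-cadherin, had few summits under its own name and more inside it, with 1 strong region among them. By nearest gene it had 1 summit in replicate 1, at 68716798 on chromosome 16 with a score of 26.3 (rank 9053). Replicate 2 had 2, a partner at 68716759 with a score of 45.2 (rank 8156) and a second at 68715784 with a score of 9.86 and no partner. The shared region lay 20492 bp upstream of the start site, in an AluJb element. It is annotated as intergenic, but falls within the span that the RefSeq table gives to CDH3.

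Inside the span of CDH1 (68737292 to 68835537) replicate 1 had 4 summits and replicate 2 had 5, and 4 of them formed shared regions. The replicate 2 summit without a partner, at 68779332, scored 3.35. All 4 shared regions are annotated to intron 2 of 14 of a CDH1 transcript. Their entries carry no gene name, because the nearest start site belonged to a non-coding transcript that the deposited files leave unnamed. They were therefore not among the summits chosen by gene name, and are given apart.

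The strongest of the 4 had summits at 68786840 and 68786844, which are 49548 and 49552 bp from the start of the CDH1 span. Its scores were 327 (rank 185, the top 0.570% of the list) in replicate 1 and 475 (rank 171, the top 0.422%) in replicate 2. Next to it, 2332 bp away, summits at 68784508 and 68784470 had scores of 67.7 and 121. A further pair of regions 1053 bp apart had summits at 68760797 and 68760718, with scores of 36.0 and 63.3, and at 68759744 and 68759794, with scores of 13.5 and 18.2. The last of these was only in the top 47.8% and 42.2% of the lists. CDH1 thus held 4.07 shared regions per 100 kb of its span, against 0.733 over the merged spans of all protein-coding genes, a value that rests on 4 regions. No summit of either list within 10 kb of a start site carried the name of CDH1.

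CDH3, the gene of P-cadherin, lies beside CDH1 and had 1 summit in each list that did not pair. Replicate 1 had it at 68626072 with a score of 37.0 (rank 6581), in an AluY element 18764 bp upstream of the start site. Replicate 2 had it at 68626773 with a score of 121 (rank 2720), 18063 bp upstream and outside any repeat. The positions are 701 bp apart, so both lists had a well-scored summit in the same stretch without meeting the distance for a shared region.

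CDH2, the gene of N-cadherin, had no summit inside its span of 244 kb in either list. Its 4 replicate 1 summits scored 4.50 to 18.4 and its 8 replicate 2 summits 4.90 to 36.4, and the nearest was 264335 bp from a start site. The 3 shared regions were all upstream and intergenic. The one with the lowest rank sum had summits at 28801087 and 28801063 on chromosome 18, 623641 bp from the start site, with scores of 18.4 (rank 12123) and 35.3 (rank 10015). The others lay 416686 and 612288 bp upstream, with replicate 1 scores of 12.4 and 11.6.

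CDH13 encodes T-cadherin, a cadherin anchored by a lipid in place of a tail that binds catenins. Its shared region was the second strongest by name among the 10 genes, with summits at 82588917 and 82588924 on chromosome 16. The scores were 194 (rank 605) and 273 (rank 701), the top 1.86% and 1.73% of the lists. It lay 37877 bp upstream of the start site in an MLT1C element, an LTR of the MaLR group. The other replicate 1 summit, at 82471018 with a score of 14.1, had no partner. Inside the span of CDH13, which is 1174 kb long, 5 shared regions carried the names of non-coding neighbours. The strongest of them had summits at 83248022 and 83248132 in intron 6 of 14, with scores of 168 and 252.

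CDH19 differed between the lists at its promoter. Replicate 1 had the summit shown above, at 66604168 on chromosome 18, 30 bp upstream of the start site, with a score of 7.82 (rank 21938). The nearest replicate 2 summit was 75556 bp away. The gene's single shared region, with summits at 66722973 and 66722961, lay 118835 bp upstream in an L2 element and had low scores of 6.43 and 8.35. The 3 remaining replicate 2 summits scored 3.11 to 13.1.

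Alpha-catenins link the cadherin complex to actin. CTNNA1, the widely expressed alpha-catenin, had 2 summits in replicate 1 and 4 in replicate 2. Its shared region had summits at 138953791 and 138953659 on chromosome 5, with scores of 19.1 (rank 12013) and 17.6 (rank 17229). It was 78391 bp downstream of the nearest of several CTNNA1 start sites, and 200366 bp from the start of the CTNNA1 span. It lay in intron 8 of 10 of SIL1, outside CTNNA1. A replicate 2 summit 3564 bp upstream of a CTNNA1 start site, in the 3′ UTR of LRRTM2, scored 12.2 and had no partner. Inside the span of CTNNA1 replicate 1 had 0 summits and replicate 2 had 2.

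CTNNA2, the alpha-catenin of neurons, had 1 shared region by name. Its summits, 79586266 and 79586126 on chromosome 2, fell within intron 1 of 17. Its scores were low, 11.6 (rank 17029) and 8.35 (rank 27021). The RefSeq span of the gene is 1463 kb long, and both lists had 15 summits within it, of which 12 pairs were shared. All but 1 of those pairs were nearest to other start sites, 7 of them to an antisense transcript of CTNNA2. Those 7 and the pair nearest to REG3A are annotated as intergenic, although they fall within the span. The strongest of the 12 is among those 7, with summits at 79394010 and 79394033 and scores of 140 (rank 1120) and 165 (rank 1728). The 12 pairs amount to 0.820 shared regions per 100 kb of the span, near the 0.733 of protein-coding genes together.

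Beta-catenin, encoded by CTNNB1 on chromosome 3, had the most shared regions of the 10 genes, and none lay in the gene. Replicate 1 had 19 summits with scores of 3.34 to 103 (median 7.82), and replicate 2 had 23 with scores of 2.07 to 145 (median 17.4). Both lists had 0 summits within the 40.9 kb of the gene. Of all protein-coding genes, only 20.9% held a shared region inside their span, so an empty span is common. The 13 shared regions covered 434 kb on both sides of it, 8 upstream and 5 downstream, and 32 protein-coding genes had more shared regions by name. Of the 5721 protein-coding genes with any, the median had 1.

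The 5 downstream regions fell in introns 33 and 34 of ULK4, the next gene. The strongest of all 13 was there, with summits at 41276416 and 41276453, 76965 bp from the CTNNB1 start site. Its scores were 103 (rank 1963) and 145 (rank 2084), the top 6.04% and 5.15% of the lists. Upstream, 2 close pairs stood out. At 41117648 and 41118861 in replicate 1, 1213 bp apart, the scores were 56.8 and 53.2, and in replicate 2 they were 83.3 and 71.3. At 41024565 and 41026758, 2193 bp apart, the replicate 1 scores were 20.2, in an MLT1H element, and 76.5, in an L2 element. Their partners scored 47.7 and 110. The summit nearest to the gene's start, 16603 bp upstream, occurred only in replicate 1 and scored 6.43.

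**Figure D3:**
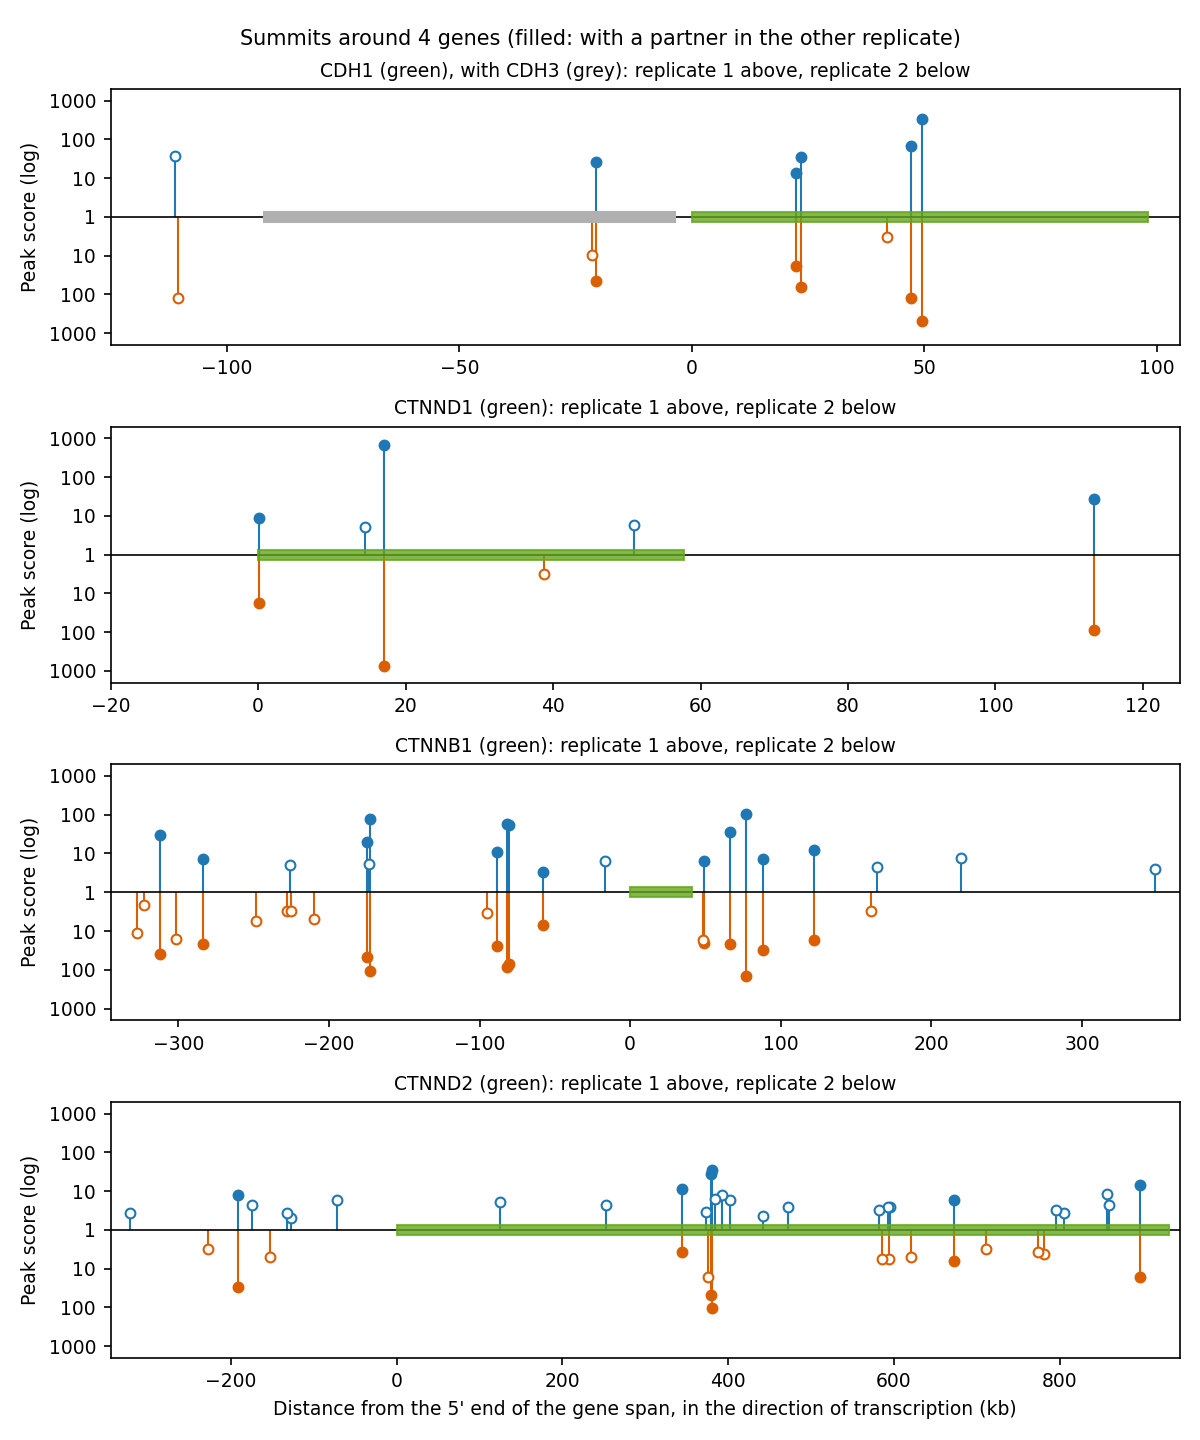
Stems show the deposited score of each summit on a log axis around CDH1, CTNND1, CTNNB1 and CTNND2, with replicate 1 above and replicate 2 below the line, against distance from the 5′ end of the gene in kb. Filled heads have a partner. CDH1 holds 4 filled pairs inside the gene, CTNND1 has its tall pair in the first intron, CTNNB1 has filled pairs on both sides and none within, and CTNND2 has many open replicate 1 heads of low score.

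Delta-catenins bind cadherin tails near the membrane and hold cadherins at the cell surface. CTNND1, the gene of p120-catenin, had the strongest region of the 10 genes. Its summits at 57778852 and 57778853 on chromosome 11 were 1 bp apart, in intron 1 of 16 and 17090 bp from the start site. The scores were 671 (rank 6) in replicate 1 and 731 (rank 11) in replicate 2. By the lowest sum of both ranks, CTNND1 stood at place 6 of the 5721 protein-coding genes with a shared region.

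CTNND1 was also the only one of the 10 with a shared region at its start site. The replicate 1 summit at 57761957 lay 195 bp from the start in the 5′ UTR and scored 8.54 (rank 20843). The replicate 2 summit at 57761858 lay 96 bp from it, in sequence annotated as promoter, and scored 17.4 (rank 17266). Both scores are modest next to the intron region. A further shared region lay 113401 bp downstream, in intergenic sequence, with scores of 26.5 and 86.3. Unpaired summits of CTNND1 scored 5.12 and 5.76 in replicate 1 and 3.11 in replicate 2. The 2 regions inside the gene amount to 3.46 per 100 kb of its 57.7 kb.

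CTNND2, the delta-catenin of neurons, had more unpaired summits in replicate 1 than any other of the 10 genes, 16 against 6 for CTNNB1, whereas in replicate 2 CTNNB1 had 10 and CTNND2 had 7. Replicate 1, the shorter list, had 21 summits, and replicate 2 had 12. On the whole of chromosome 5 the order was the opposite, with 2031 and 2525. Of the replicate 1 summits 5 recurred (23.8%, 10.6% to 45.1%), and the 16 without a partner scored 2.06 to 7.82. Of the replicate 2 summits 5 recurred (41.7%, 19.3% to 68.0%), and the other 7 scored 3.11 to 16.5.

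The shared regions of CTNND2 held a close pair in intron 3 of 21, 1020 bp apart. The stronger had summits at 11524250 and 11524292, 64667 bp from a start site, with scores of 34.1 (rank 7027) and 104 (rank 3306). The weaker had summits at 11525270 and 11525278, with scores of 27.0 and 46.5. The other 3 scored 5.97 to 11.6 in replicate 1, and their replicate 2 scores were 6.22, 3.68 and 29.0. The region at 12096172 and 12096205 was intergenic and outside the gene. Another shared region lay inside the gene, in intron 17 of 21, but was nearest to DAP. Its summits at 11007457 and 11007470 scored 14.1 and 16.5. Over the 933 kb of the gene the density was 0.536 shared regions per 100 kb. This counts the 4 regions by name inside the gene and the 1 nearest to DAP.

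**Figure D4:**
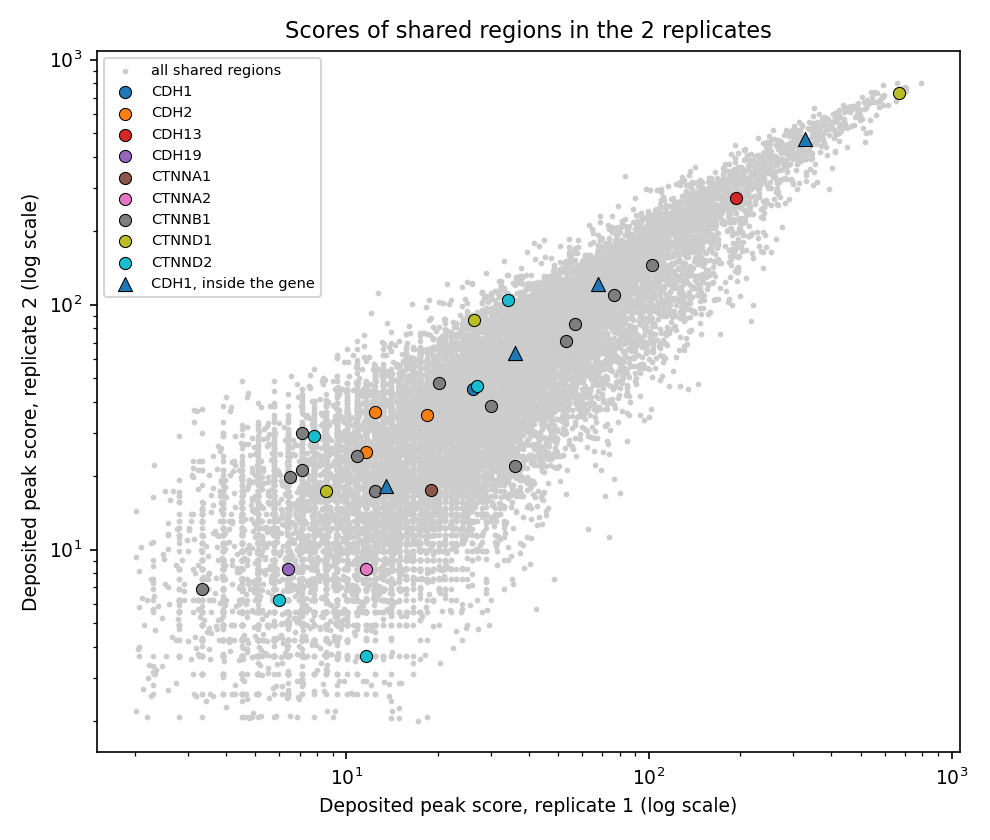
Scores of shared regions in replicate 1 and replicate 2 on log axes, with all 22702 shared regions in grey, the 29 regions of the 10 genes as circles by gene, and the 4 regions inside CDH1 as triangles. CTNND1 (671 and 731), the CDH1 intron region (327 and 475) and CDH13 (194 and 273) lie toward the top end, and most of the others in the middle of the cloud. Regions inside CDH13, CTNNA2 and CTNND2 that carry another gene's name are not marked. The strongest of these were in CDH13 (168 and 252) and CTNNA2 (140 and 165).

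Scores were higher in replicate 2 for 25 of the 29 regions (86.2%), against 75.0% of all shared regions. Of the 29, 4 were in the top 10% of both lists (13.8%), against 12.4% of all shared regions. Counted by position in place of name, 6 of the 10 genes held a shared region inside their span, against 20.9% of all protein-coding genes, and a longer gene can hold more. These 6 were CDH1, CDH3, CDH13, CTNNA2, CTNND1 and CTNND2. Of the 29 shared regions inside the span of any of the 10 genes, 22 carried another gene's name or none. CTNNA2 held 11 of them, CDH13 5 and CDH1 4. The same share over all genes was not counted, so the number cannot be called particular to these genes. Only 7 regions were both nearest to and inside the same gene.

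Other genes of cell junctions were counted in the same way. Of 44 further cadherin, catenin, desmosome and junction partner genes, 19 were nearest to a shared region at some distance (43.2%, against the same 28.6%) and 3 had one at 10 kb or less from a start site (6.82%, against the same 10.1%). The 18 other cadherins had 11 with a shared region and 0 within 10 kb. The 10 other catenins and armadillo proteins had 4 and 1, the 9 junction partners 3 and 2, and the 7 desmosomal cadherins 1 and 0.

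The 3 genes with a close region were PKP1, LIMA1 and ZBTB33. PKP1, a desmosomal plaque protein, had summits at 201277536 and 201277514 on chromosome 1, 5916 bp upstream, with scores of 73.6 and 149. LIMA1, an actin-binding protein of junctions, had 2 such regions, the stronger with summits 50277555 and 50277637 of chromosome 12, 6015 bp from the start and in intron 1 of 10, with scores of 25.0 and 36.4. ZBTB33, the gene of Kaiso, a repressor that binds p120-catenin, had summits at 120254135 and 120254109 on chromosome X in exon 3 of 3, with scores of 20.8 and 28.0.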

How the data were processed

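HA-tagged TBX3 ChIP samples of 501mel cells (2 replicates) were analysed from 1 deposited peak list each, not pooled. The submitters' processing notes name FastQC 0.11.7, cutadapt 2.8, Bowtie2 2.3.5, SAMtools 1.9, MACS2 2.1.2 and build hg38, with no role given; per the file headers, summits were annotated with annotatePeaks.pl. Scores are as the authors deposited them, on a scale that is not stated. Deposited positions and distances to the start site are in bp. Groups and replicate numbers came from sample titles.

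Summits were paired as mutual nearest within 200 bp. The code of this step was checked on simulated data with partners planted inside that distance. The simulated sites were spaced wider than the closest real summits (415 bp in replicate 1), so the check covers the code only. Nearest gene and distance are those of replicate 1. Genes were matched by Entrez ID to the RefSeq table of GRCh38.p14 (98.3% and 98.5% of entries), which gave the spans. Tied scores share the smaller rank. Shares have Wilson intervals of 95% and no test was run. For each gene the shared region with the lowest rank sum and any within 10 kb of a start site are given, and of the other list up to 5 genes; further regions and the regions inside CDH1 were singled out after their values were seen. The 5 kb spacing, the split at the median score and the setting without CTNND2 were also chosen after seeing the data. The members and lists were chosen with earlier results of these data known. Python 3.11.15 with pandas 2.3.3 was used.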

Additional observations from a re-analysis of the deposited data

How the results depend on the processing

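Depth is unknown and only 2 lists exist, so no alternative adds replication. Of 56 alternatives of the summary counts and shares, 27 left a count within 1.5 times (bounds included) or a share within its counting interval. No paired analysis was possible because the input samples that share replicate numbers with the ChIP samples were not analysed here and no test was run. The cause of the changes was not tested, though some settings by definition keep fewer summits.

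With summits at the same base, 0 shared regions, 0 members with one, 0 within 10 kb, 0 further junction genes and shares of 0% remained. Within 50 bp the shares were 34.5% and 32.8% and 0 members had a region within 10 kb. For scores at or above the median there were 17 shared regions, a share of 85.0% in replicate 1 and 0 members within 10 kb. For the 5000 highest scores there were 5 shared regions at 3 members, shares of 83.3% and 62.5%, 0 members within 10 kb and 1 further junction gene. Without CTNND2 the replicate 1 share was 64.9%. Leaving out satellites and simple repeats kept 29 shared regions. With the nearest gene limited to 50 kb, 6 shared regions at 5 members remained. From 1 kb to 50 kb of the start site, further junction genes went from 0 to 9, and members reached 5 at 50 kb. With a single list in place of both (leaving out each replicate in turn), the regions numbered 58 to 61, members with a region 10, members within 10 kb 2 and further junction genes 4 to 7. Of 100 alternatives of the counts of single genes, 53 moved by more than 1.5 times.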
